A study of Drosophila melanogaster with 12 samples.

Results

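CG11413 and CG12998 are a pair of protein-coding genes of Drosophila melanogaster whose head transcripts rose and fell over a day of light and darkness. They were chosen for that rhythm. The members were all probe sets (groups of oligonucleotides that read 1 transcript on the array) that the platform's annotation gives to CG11413 or CG12998. There was 1 for each gene, so the members were 2 of the 10844 genes that could be named on the array and 2 of its 13966 probe sets: 147871_at for CG11413 (NCBI gene 37920, on chromosome arm 2R) and 145236_at for CG12998 (NCBI gene 32710, on the X chromosome). Neither gene has a name beyond its annotation number in the tables used here, and no role is given to either.

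Heads of adult y w flies, which carry mutant alleles of yellow (body colour) and white (eye colour), were collected every 4 h. Before that, flies were held for 3 days under 12 h of light and 12 h of darkness. The 6 arrays of the LD group came from a further light/dark day, at hours 2, 6, 10, 14, 18 and 22 after lights-on, with the lights off from hour 12. The 6 arrays of the DD group came from the following day, in constant darkness, at the same hours counted from subjective lights-on. Flies of both groups carried the same y w alleles and shared the same entrainment, and age and sex were not given. Each array was made from 1 pool of about 100 to 200 heads broken from frozen flies and sieved. Nothing in the labels says that the pools came from separate cultures, so p-values measure only how these arrays spread, which may in part be technical. Light regime and day order cannot be told apart.

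In the fly head, a daily rhythm of a transcript can come from the circadian clock, from light itself, or from both. The clock is a feedback loop in which the proteins of Clk and cyc activate per and tim, whose products then repress that activation. It keeps running for days without light, so transcripts under its control usually go on cycling in constant darkness, whereas a response to light needs the light cycle. Setting an LD day against a DD day is the usual way to compare both kinds of rhythm.

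All 12 arrays were alike in scale, with medians between 5.37 and 5.40 on the log2 scale of the deposited values. Between arrays, r across probe sets, which are not independent replicates, was 0.973 to 0.995. Of the markers of head tissue, Arr2 and Arr1, the arrestin genes of photoreceptor cells, had log2 levels of 12.0 to 12.5 and 10.3 to 11.9, and the photoreceptor channel gene trp 9.01 to 10.3. The neuronal genes nSyb (6.19 to 6.93), brp (6.09 to 6.29) and elav (4.11 to 5.69) and the glial gene repo (5.07 to 6.42) were dimmer, while ninaE, ninaC and Eaat1 had no probe set with a single symbol here. The 5′ minus 3′ signal of 3 control transcripts, which falls when the labelled RNA is less complete, lay between −2.02 and −1.52 log2 in LD and between −2.51 and −1.52 in DD. It was lowest at DD hours 18 and 22 (−2.51 and −2.45). Precision is limited by the number of arrays for all values below.

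CG11413 was high in the second part of the lit day and fell through the night in LD, and it was low at all hours in DD. In LD its log2 level was 7.10 at hour 2, 8.48 at hour 6, 8.59 at hour 10, 7.95 at hour 14, 7.19 at hour 18 and 6.52 at hour 22. In DD it was 6.55, 6.53, 6.38, 6.43, 6.35 and 6.21 at the same hours. The LD arrays thus stood above all DD arrays except at hour 22, which fell inside the DD range.

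CG12998 also rose through the lit day and fell through the night in LD, at a lower signal and in different steps. In LD its log2 level was 5.22 at hour 2, 6.15 at hour 6, 6.85 at hour 10, 5.67 at hour 14, 4.88 at hour 18 and 4.56 at hour 22. In DD it was 4.37, 4.51, 4.51, 4.41, 4.09 and 4.52 at the same hours. The lowest LD array (hour 22) was above the highest DD array (also hour 22) by 0.04 log2, so the groups did not overlap. Of all 13966 probe sets, 0.437% had every LD array above every DD array.

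**Figure D1:**
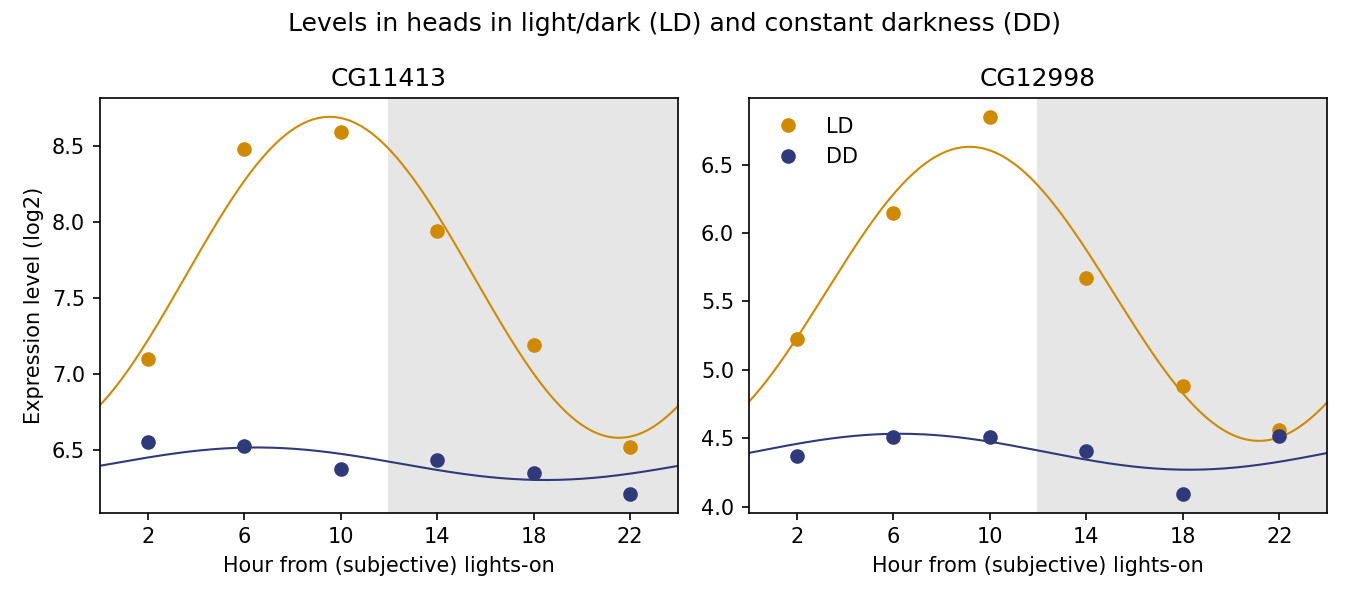
Log2 expression level of CG11413 (left) and CG12998 (right) against the hour from actual or subjective lights-on, with 1 point per array, LD in orange and DD in blue, and the fitted 24 h curves as lines; the shaded hours are night or subjective night. LD points reach 8.59 and 6.85 at hour 10, while DD points stay between 6.21 and 6.55 and between 4.09 and 4.52.

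A cosine of 24 h fitted to each day gave an LD amplitude, from the mean of the curve to its peak, of 1.06 ± 0.09 log2 (SE, 12 arrays) for CG11413 with the peak at hour 9.54. For CG12998 the amplitude was 1.07 ± 0.10 with the peak at hour 9.16. These curves correspond to peak-to-trough ratios of 4.33 and 4.44. The difference in amplitude between the genes was smaller than either standard error, and their peaks lay 0.38 h apart. These values chose the genes, so they are descriptions and no test of them is independent. Both genes were among the 7 probe sets called for an LD rhythm across the whole table (limma, adjusted p under 0.05), or 0.0501% of all. Since the genes were chosen for this rhythm, that call is no support for it. Both lost that call with LD hour 10 or LD hour 22 left out, without the 4 arrays of lowest 5′ minus 3′ signal and with the LD arrays alone, and CG12998 also without LD hour 18. By LD amplitude they ranked 11 and 10 among 13966, where the median amplitude was 0.09 and the 95th percentile 0.32 log2.

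The curve did not describe every hour equally. CG11413 was 0.21 log2 above its curve at LD hour 6 and 0.19 above it at hour 18. CG12998 was 0.25 above its curve at hour 10 and 0.20 below it at hour 14. CG11413 had gained nearly all of its rise by hour 6, with a step of 1.39 log2 from hour 2 to hour 6 and of 0.11 from hour 6 to hour 10. CG12998 rose in more even steps of 0.92 and 0.70. From hour 10 to hour 14, a step that spans lights-off at hour 12, CG12998 dropped by 1.18 log2 and CG11413 by 0.65. From hour 14 to hour 18 the steps were −0.76 log2 for CG11413 and −0.79 for CG12998. From hour 18 to hour 22 they were −0.67 and −0.32. With 1 array per hour, these differences in shape have no replicate check. Both genes were higher at LD hour 2 than at LD hour 22, by 0.58 and 0.66 log2, and hour 2 was the first array of that day and hour 22 its last.

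In DD both curves were nearly flat. The fitted amplitude was 0.11 ± 0.09 log2 (SE, 12 arrays) for CG11413 and 0.13 ± 0.10 for CG12998, or 10.1% and 12.2% of the LD amplitude. With each array left out in turn the DD amplitude ran from 0.09 to 0.16 for CG11413 and from 0.02 (without DD hour 18) to 0.23 (without DD hour 22) for CG12998. A fitted amplitude is never below 0, and the median DD amplitude of all probe sets was 0.11. The DD levels ranged over 0.34 log2 for CG11413 and 0.42 for CG12998. The standard deviation over the 6 DD arrays was 0.13 and 0.16 log2, where the median of all probe sets was 0.13, and over the 6 LD arrays it was 0.83 and 0.85. The length of the difference between the LD and DD curves was 0.99 ± 0.12 log2 for CG11413 and 0.98 ± 0.14 for CG12998. Since the genes were chosen on their LD and DD curves, these are descriptions. No probe set passed the test of that difference in the whole table (limma, 0 of 13966, which is 0%, where 1391 had an unadjusted p under 0.05). Because these curves chose the genes, neither that test nor the values can show whether the rhythm of either gene was lost in DD.

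The DD signal of CG12998 was close to what the array gave for absent transcripts. Its 6 DD levels, 4.09 to 4.52, lay within the range of 8 control probe sets for mouse and yeast transcripts that flies lack, which spanned 2.57 to 4.54 over all arrays. Probe sets differ in their background, so this range does not say that the transcript was absent. A further fall or a small rhythm of CG12998 in DD may be below what its probe set can show. Its level at LD hour 22, 4.56, lay just above that range, so its LD trough and LD amplitude may be limited as well. CG11413 stayed above that range on every array.

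Hour by hour, both genes were lower in DD than in LD at all 6 hours, which held for 2.39% of all probe sets. At hour 10 the measured LD signal was 4.65 times the DD signal for CG11413 and 5.06 times for CG12998. Since the DD signals of CG12998 lay in the range of the controls, its ratios and level differences may understate the change in its transcript and are not ranked against those of CG11413. At hour 6 it was 3.88 and 3.10 times, and at hour 14, which was 2 h into the LD night, 2.85 and 2.41 times. At hour 22 the ratios were only 1.24 and 1.03, so the measured signals of the days came together at the end of the night. For CG12998 both signals at that hour were close to the top of the control range, so its ratio may be limited by background.

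Averaged over the 6 hours, CG11413 stood at 7.64 ± 0.83 log2 on the LD day and at 6.41 ± 0.13 on the DD day (both SD, n = 6). CG12998 stood at 5.56 ± 0.85 and 4.40 ± 0.16. DD minus LD was −1.23 ± 0.22 log2 (SE) for CG11413 and −1.15 ± 0.23 for CG12998, with LD 2.34 and 2.23 times as high. Neither difference passed the test across all probe sets with a common 24 h curve (limma, adjusted p = 0.0976 and 0.129). In the same test 0.15% of probe sets were called, 18 lower (0.129%) and 3 higher (0.0215%) in DD, and the median of all was −0.0045 log2. The mean level is a separate term from the curve, but it was measured on the arrays that chose the genes. Ordered from the most negative DD minus LD difference, CG11413 ranked 22 among 13966. Of the 18 called falls, that of Acp1, a cuticle protein gene, was the largest measured (−3.73 ± 0.32, adjusted p = 0.00185).

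That test depended on how the curve was treated, because 1 curve for both days leaves the LD rhythm of these genes in the error. With a separate curve for each day, an alternative added after the data were seen, the adjusted p was 5.82e-04 for CG11413 and 8.15e-04 for CG12998 (limma). The small residuals of that fit are also what chose the genes. With hour of day as a block, so that each DD array was paired with the LD array of its hour, the adjusted p was 0.391 and 0.451. CG11413 passed without LD hour 22 (limma, adjusted p = 0.0390), and CG12998 passed without DD hour 22 (0.0470). These were the lowest LD array of CG11413 and the highest DD array of CG12998. Leaving them out widened the differences to −1.37 and −1.32 log2, so these passes are no added support. CG12998 also passed when the 5′ minus 3′ signal was added to the fit (−1.34 ± 0.21, limma, adjusted p = 0.0465).

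The DD values of the genes were compared with each other as a description, since the DD curves were part of their choice. Over the 6 DD arrays Pearson's r between CG11413 and CG12998 was −0.0032 and Spearman's rho −0.257, and with each DD array left out in turn r ran from −0.568 to 0.449. With CG12998 in the range of the control probe sets, these values cannot show whether the genes vary together in DD. In LD r was 0.954 and rho 0.943 over 6 arrays, which describes the shared rhythm that chose them. The LD deviations from the curves had r = −0.182.

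The 5′ minus 3′ signal of the control transcripts was set against each gene within each day, since the levels of the days lay in mostly separate ranges. For CG11413 r was 0.333 in LD and 0.779 in DD (exact permutation tests over 720 pairings, two-sided, p = 0.539 and 0.0792). For CG12998 r was 0.139 in LD and 0.485 in DD (exact permutation p = 0.789 and 0.319). Spearman's rho was 0.143, 0.771, 0.0286 and 0.0286 in the same order (exact permutation p = 0.803, 0.103, 1 and 1). Adjusted over the 5 relations computed, with that between the genes in DD included, the p-values of r were 0.396 or more and those of rho 0.514 or more. When the 2 arrays with the most distant signals were left out, the DD r went down to 0.273 for CG11413 and 0.169 for CG12998. With this signal added to the fit the LD amplitudes were 1.04 and 1.09 log2, against 1.06 and 1.07 without it.

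Besides CG11413 and CG12998, 5 probe sets were called for an LD rhythm, and none of these reached its peak as early. The clock gene tim, whose protein pairs with that of per and is degraded in light, peaked at hour 15.3 in LD with an amplitude of 1.21 ± 0.10 log2 (limma, adjusted p = 0.00863). In DD its amplitude was 0.85 ± 0.10 (adjusted p = 0.0931). The vri gene, which encodes a repressor of Clk, had 0.84 ± 0.09 in LD and 0.87 ± 0.09 in DD, with peaks at hours 13.6 and 13.8 (DD adjusted p = 0.0720, limma). Slob, whose protein binds the Slowpoke potassium channel, had 0.64 ± 0.06 in LD and 0.44 ± 0.06 in DD (DD adjusted p = 0.171, limma). For a DD rhythm 0 of 13966 probe sets were called, which is 0% (limma, 1609 with an unadjusted p under 0.05).

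In level, tim was below LD in DD at all 6 hours, with DD minus LD of −0.51 ± 0.13 log2 (limma, adjusted p = 0.376), although its lowest DD and LD levels were 5.56 and 5.58. The levels of vri and Slob differed between days by 0.01 ± 0.08 and −0.03 ± 0.12 log2 (limma, adjusted p = 0.991 and 0.975). Act88F encodes an actin of the flight muscle. It went from 5.85 at LD hour 2 to 7.93 at LD hour 14 and lay between 5.32 and 5.84 in DD, a DD minus LD difference of −1.17 ± 0.27 (adjusted p = 0.294). Its LD peak fell at hour 13.2, later than those of CG11413 and CG12998. For Tsp, which encodes thrombospondin, a probe set that was not its brightest had 0.58 ± 0.05 in LD with the peak at hour 12.4 and 0.24 ± 0.05 in DD. Over the 12 arrays the correlation with the mean standardised level of CG11413 and CG12998 was r = 0.789 for that probe set and 0.766 for Act88F, given as a description.

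**Figure D2:**
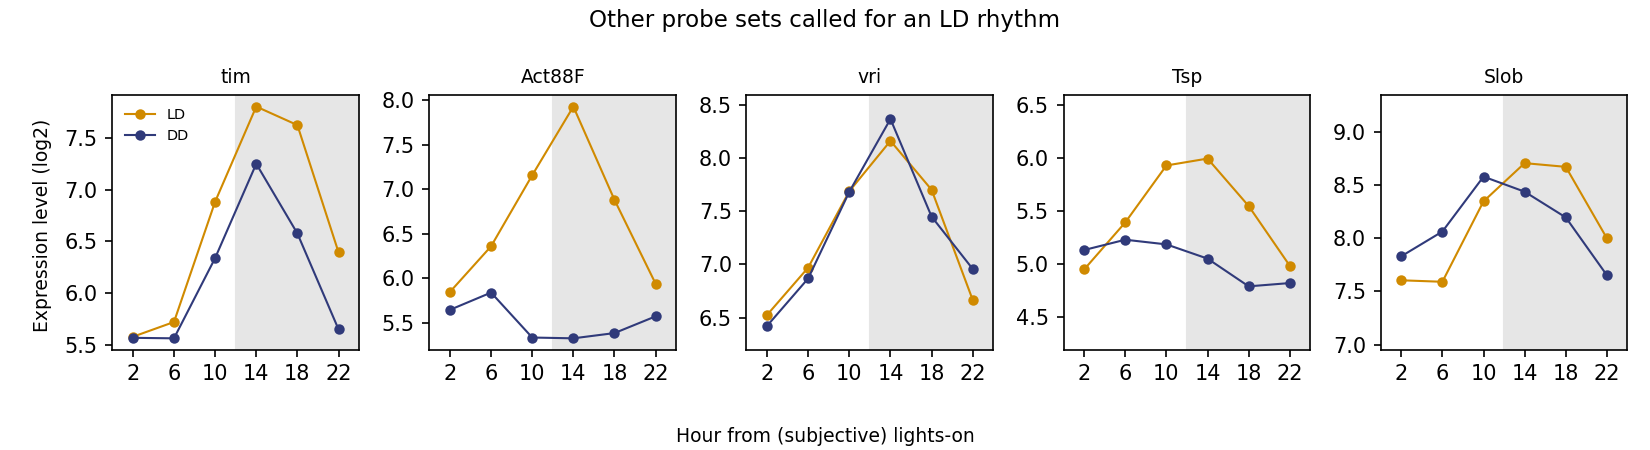
Log2 levels of the other 5 probe sets called for an LD rhythm against hour, LD in orange and DD in blue, 1 point per array, each panel on its own scale spanning at least 2.4 log2 units. The lines of tim, vri and Slob rise and fall on both days, while Act88F lies between 5.32 and 5.84 in DD.

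Of the core clock genes in a fixed list, 15 of 19 were measured, and 2 were called for an LD rhythm, tim and vri (limma, against 0.0501% of all probe sets). For mean level 0 of 15 were called, where 0.15% of all probe sets were, with a median DD minus LD of 0.0058 log2 against −0.0045 over all probe sets. In that test 1 of the 15 had an unadjusted p under 0.05 (limma), against 6.82% of all probe sets. Clk and per, which did not pass, had LD amplitudes of 0.42 ± 0.14 and 0.34 ± 0.10 and DD amplitudes of 0.43 ± 0.14 and 0.35 ± 0.10. The median amplitude of the list was 0.18 in LD and 0.33 in DD. In the phototransduction list 16 of 27 genes were measured, and 0 were called for rhythm or level (limma, 3 with an unadjusted p under 0.05 for an LD rhythm and 2 for level, against 5.66% and 6.82% of all probe sets). The list had 13 of 16 genes with a lower mean in DD, with a median DD minus LD of −0.12 log2 against −0.0045 over all probe sets. Its widest LD curves were those of Arr1 (0.55 ± 0.24 log2), the phosphatase gene rdgC (0.49 ± 0.11), the light-activated channel gene trpl (0.48 ± 0.13) and the calcium exchanger gene Calx (0.39 ± 0.15). That of trpl peaked at hour 10.2 in LD, near the peaks of CG11413 and CG12998, and at hour 9.53 in DD with an amplitude of 0.33 ± 0.13.

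The genes that lie beside each member in the fly genome were then read, 2 on each side by their order in the Release 6 assembly. The interval of CG11413 lies inside that of CG4622. The measured levels of CG4622 stayed between 4.30 and 4.60 on all arrays, with an LD amplitude of 0.01 ± 0.05 log2. All but that of DD hour 22 lay within the range of the mouse and yeast controls, 2.57 to 4.54. A rhythm of CG4622 may therefore be below what its probe set can show. The ITP gene, which encodes ion transport peptide, a neuropeptide, follows CG11413 and had an LD amplitude of 0.09 ± 0.08. Those of CG13585 and of Nurf-38, a subunit gene of the nucleosome remodelling factor, were 0.34 ± 0.11 and 0.06 ± 0.19. None of these 4 was called for rhythm or level, where 0.0501% of all probe sets were called for an LD rhythm and 0.15% for level.

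Beside CG12998 the picture was mixed. CG18258 and CG5162, on one side, had LD amplitudes of 0.13 ± 0.06 and 0.07 ± 0.09 and were not called. CG5172, the next gene on the other side, had the widest LD curve of all 13966 probe sets, 1.56 ± 0.39 log2, with the peak at hour 9.24. Its log2 level was 8.58 at LD hour 2, 7.56 at hour 6, 9.35 at hour 10, 8.74 at hour 14, 6.33 at hour 18 and 5.45 at hour 22. In DD it was 5.25, 5.20, 5.34, 5.31, 5.52 and 5.16 at the same hours. Only the level at LD hour 22 fell inside the DD range.

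Unlike CG12998, CG5172 was already high at LD hour 2 and fell by 1.02 log2 to hour 6 before its peak. Its curve therefore had a wide error, and it passed neither for the LD rhythm (limma, adjusted p = 0.620) nor for the DD minus LD mean level (−2.37 ± 0.49, adjusted p = 0.177). CG34327, the gene after CG5172, was not measured under a symbol of its own. The other 6 measured neighbours had DD minus LD differences between −0.13 and 0.21 log2. None of them was called (limma, adjusted p of 0.782 or more), where 0.15% of all probe sets were.

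**Figure D3:**
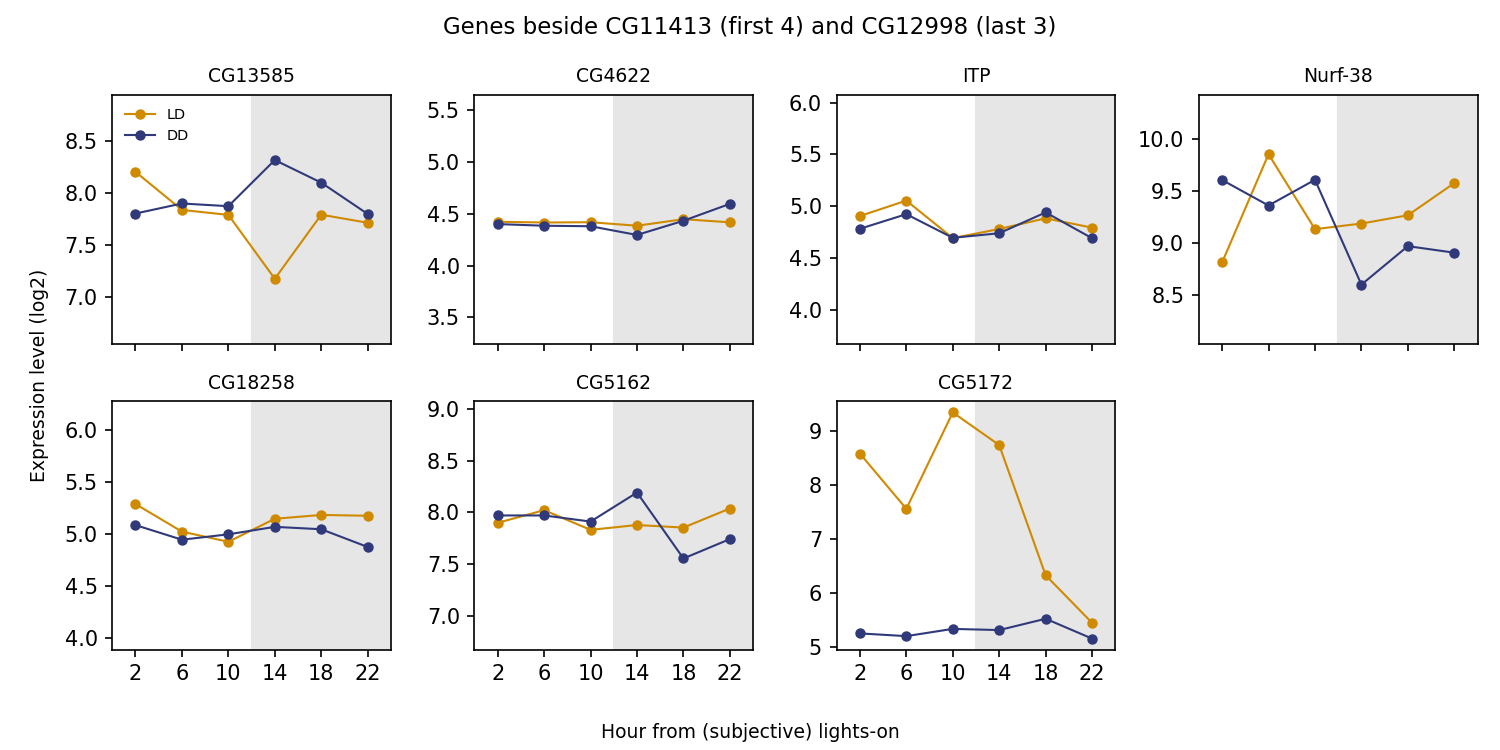
Log2 levels of the measured genes beside CG11413 (CG13585, CG4622, ITP, Nurf-38) and beside CG12998 (CG18258, CG5162, CG5172) against hour, LD in orange and DD in blue, 1 point per array, each panel on its own scale spanning at least 2.4 log2 units. CG5172 reaches 9.35 at LD hour 10 and stays between 5.16 and 5.52 in DD.

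Across all named genes, likeness was measured as Pearson's r of a gene's brightest probe set with the mean standardised level of CG11413 and CG12998 over the 12 arrays. The 12 points share both the LD rhythm and the step between the days, so r is a description. Among 10842 genes the median r was −0.0037, and 52 had r above 0.8. The 10 most alike were CG4962 (r = 0.945), CG13722 (0.943), Cpr47Ef (0.915), Nplp3 (0.909), CG8736 (0.903), CG12643 (0.903), CG13043 (0.903), Vajk3 (0.899), Cpr100A (0.893) and stj (0.892). The neighbour CG5172 came 12th, with r = 0.885. Cpr47Ef and Cpr100A encode cuticle proteins of the Cpr family, Nplp3 a neuropeptide-like precursor and stj a subunit of voltage-gated calcium channels.

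These 10 genes, chosen for a similar pattern, differed in size and in part in shape. From LD hour 2 to LD hour 6, CG8736 went from 10.3 to 10.1 log2, CG13043 from 7.41 to 7.19 and Cpr100A from 9.29 to 9.08. The others rose over these hours, as CG11413 and CG12998 did. All 10 had their LD peak between hour 8.36 (CG13722) and hour 11.3 (Vajk3), and 8 of the 10 were lower in DD at all 6 hours. Their choice by r had in part used both traits. Their LD amplitudes ran from 0.18 ± 0.07 log2 for CG12643 to 1.35 ± 0.28 for CG8736. For an LD rhythm 0 of the 10 passed (limma), where 0.0501% of all probe sets did. DD minus LD ran from −0.24 ± 0.08 for stj to −3.12 ± 0.37 for CG8736. All levels of stj, 3.57 to 4.32, lay within the range of the mouse and yeast controls, so its values may be limited by background. CG8736, Vajk3 and Cpr100A were called lower in DD (limma, adjusted p = 0.0108, 0.0134 and 0.0141), against 0.129% of all probe sets. Their choice had already used that comparison in part.

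CG8736 lay between 7.83 and 11.1 log2 in LD and between 6.68 and 6.93 in DD. CG4962, the most alike, lay between 7.33 and 8.26 in LD and between 7.02 and 7.29 in DD. In both genes every LD array was above every DD array, as in 0.437% of all probe sets. The same held for CG13722, Nplp3, CG12643, Vajk3 and Cpr100A, but not for Cpr47Ef, CG13043 and stj. The choice of these genes by r had in part used this separation.

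**Figure D4:**
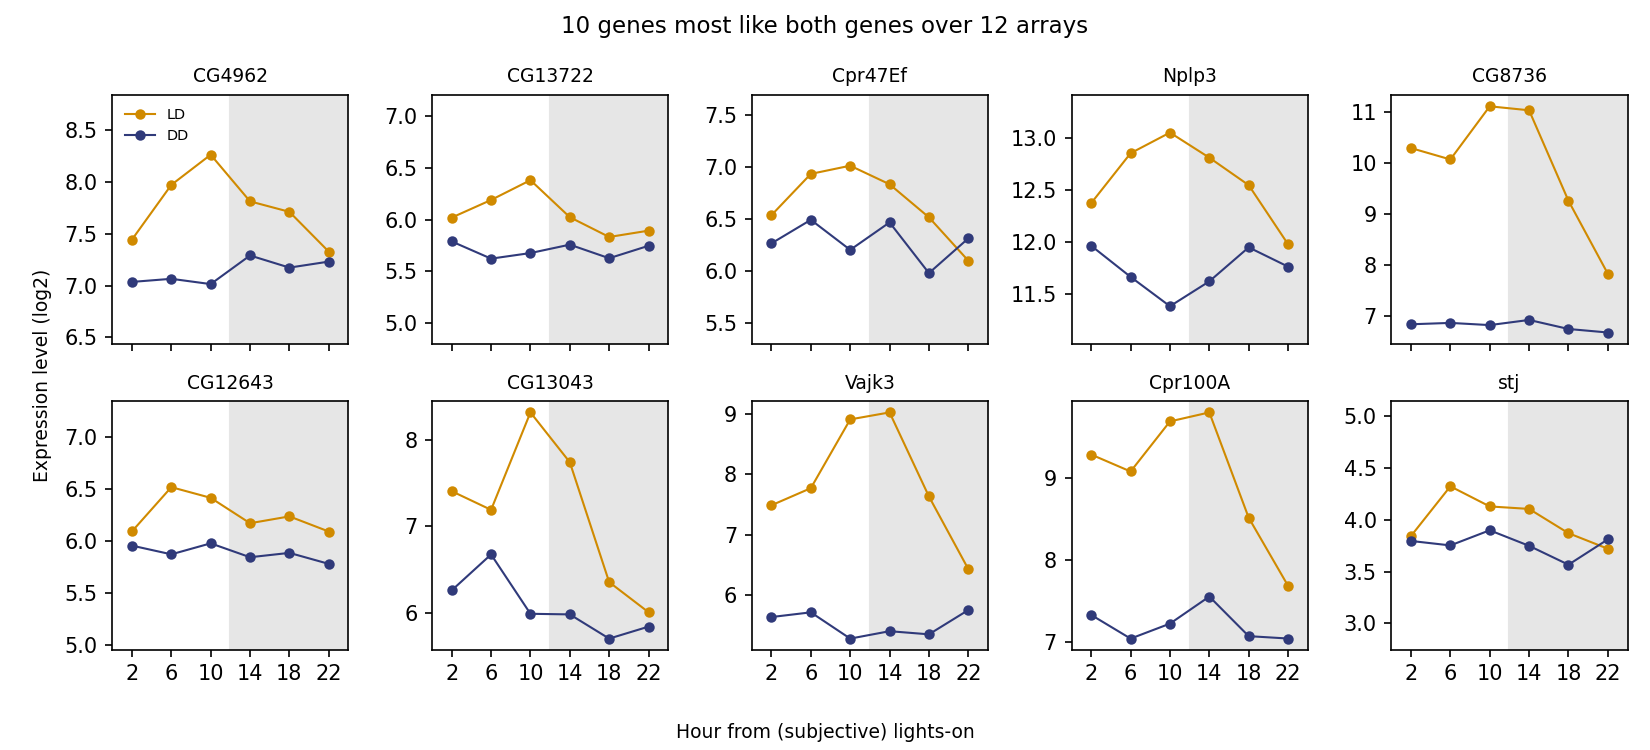
Log2 levels of the 10 genes most like CG11413 and CG12998 over the 12 arrays against hour, LD in orange and DD in blue, 1 point per array, each panel on its own scale spanning at least 2.4 log2 units. CG8736 lies between 7.83 and 11.1 in LD and between 6.68 and 6.93 in DD, and stj between 3.72 and 4.32 in LD and between 3.57 and 3.90 in DD.

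**Figure D5:**
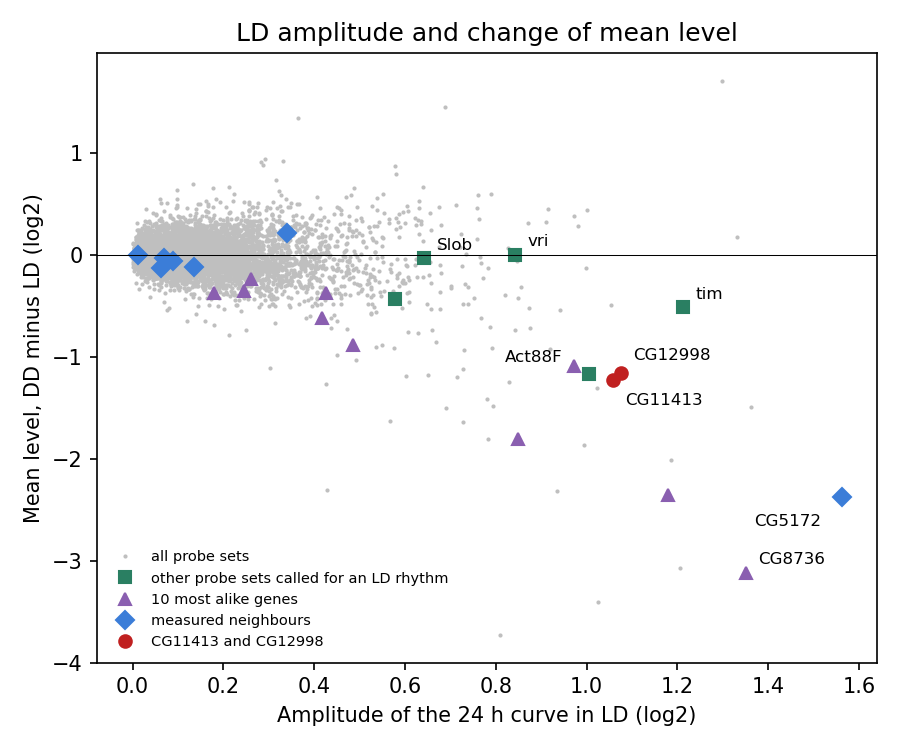
DD minus LD mean level (log2) against LD amplitude (log2), with all 13966 probe sets in grey and the named groups in colour. CG11413 and CG12998 (red) lie at amplitudes of 1.06 and 1.07 and level differences of −1.23 and −1.15, near Act88F, while vri and Slob lie near 0 on the vertical axis and CG5172 at 1.56 and −2.37.

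Marker lists of tissues that sieved heads hold, or could carry over, were read as well. Of the cuticle list 14 of 15 genes were measured, and 2 were called lower in DD (Acp1 and Cpr100A, limma, against 0.129% of all probe sets called lower). With an unadjusted p under 0.05, 4 were lower (limma, against 6.82% of all probe sets in either direction). For an LD rhythm 0 of the 14 were called, and 6 had an unadjusted p under 0.05 (limma, against 0.0501% and 5.66%). In all 10 of 14 had a lower mean in DD, with a median of −0.08 log2 against −0.0045 over all probe sets. The mean level of the list lay between 7.34 and 7.82 in LD, highest at hour 10 and lowest at hour 22, and between 7.05 and 7.24 in DD. At LD hour 2 it was 7.80, nearly as high as at hour 10 and above the 7.63 of hour 6, while CG11413 and CG12998 were well below their peaks at hour 2.

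The mean of the flight muscle list, of which 17 of 20 were measured, lay between 7.67 (hour 2) and 8.80 (hour 14) in LD and between 7.55 and 8.36 in DD. Here 16 of 17 genes had a lower mean in DD, with a median of −0.38 log2 against −0.0045 over all probe sets. For mean level 0 were called, and 7 were lower with an unadjusted p under 0.05 (limma, against 0.15% and 6.82% of all probe sets in either direction). For an LD rhythm 1 of the 17 was called, Act88F, and 8 had an unadjusted p under 0.05 (limma, against 0.0501% and 5.66%). The fat body and lipid list (15 of 19 measured) had means of 8.84 to 9.15 in LD and 8.60 to 8.90 in DD, with 1 gene called lower (limma, against 0.129% of all probe sets). That was Lsp2, which encodes a larval serum protein (−1.19 ± 0.19 log2, adjusted p = 0.0335). With an unadjusted p under 0.05, 4 of the 15 were lower (limma, against 6.82% of all probe sets in either direction). The midgut list lay between 6.01 and 6.06 in LD and between 5.94 and 6.37 in DD, and the list of testis and accessory gland between 4.32 and 4.43 and between 4.30 and 4.64. Neurons lay between 5.91 and 6.25 in LD and between 5.73 and 6.31 in DD, and glia between 6.43 and 6.68 and between 6.49 and 6.65. A lower mean in DD was found for 13 of 15 genes of fat body and lipid and 4 of 18 of midgut. It was found for 6 of 19 of testis and accessory gland, 6 of 11 of neurons and 3 of 8 of glia. The median DD minus LD of these lists was −0.15, 0.03, 0.06, −0.03 and 0.03 log2 in the same order, against −0.0045 over all probe sets. The mean of the testis and accessory gland list was within the range of the mouse and yeast controls on most arrays, and no other list mean was. In pooled heads, fewer cells of a type and less RNA per cell cannot be told apart. The part of these tissues in the patterns of CG11413 and CG12998 was not tested.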

How the data were processed

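The deposited values were log2 expression levels that the authors made with RMA, per the submitters' processing notes. Neither its release nor the set of arrays processed together is named in the labels. Values ran from 1.96 to 13.9 and were used as deposited, without a filter. Of 14010 probe sets, 44 controls were set aside. Of the 13966 tested, 12443 carried 1 gene symbol, 327 several and 1196 none, and 12394 of the former matched the Release 6 gene table by NCBI gene number. Each of 10844 genes stood by its brightest probe set.

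Models were fitted to the 12 arrays with limma 3.58.1 (R 4.3.3), with Benjamini-Hochberg adjustment over 13966 and a threshold of 0.05. The rhythm fit had a level, cosine and sine of 24 h for each day (6 residual degrees of freedom). The mean-level fit had the day and a common cosine and sine (8 degrees of freedom). Fits were tested on simulated data. No array was dropped in them. The labels number no replicates, so only the hour of day could pair the days.

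The genes, lists and naming rules were chosen with earlier results of these data known. The rule named the members, the other called LD rhythms, the 10 genes most and 3 least alike, 2 neighbours on each side, and the 4 clock and 4 phototransduction genes of widest LD curve. Acp1 was chosen after its values were seen. Alternatives were another quantile normalization, centred arrays, a robust prior with an intensity trend, adding the 5′ minus 3′ signal to the fit, leaving out its 4 lowest arrays or each array, brighter probe sets, the hour as a block, no curve, each day alone, and, added after the data were seen, a separate curve for each day. No sequences were used here, so proteins of like sequence, also in the rule, were not named.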

Additional observations from a re-analysis of the deposited data

Results flagged for a closer look

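The level of CG12998 at DD hour 18 was 4.09 log2 and stood apart from the other DD arrays, of which the nearest was 4.37 (hour 2) and the highest 4.52 (hour 22). The 5′ minus 3′ signal of the control transcripts was also lowest on that array (−2.51), and its part in the low value was not tested. Without that array the DD amplitude of CG12998 was 0.02 log2, against 0.13 with it, and without DD hour 22 it was 0.23. In all 66 groups of 6 arrays were examined in this way, for the named genes, and this was the 1 that stood apart, where chance gives about 1 in 20.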

How the results depend on the processing

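The LD amplitudes of CG11413 and CG12998 stayed between 0.98 and 1.14 and between 0.92 and 1.14 log2 under every setting fitted, and their DD amplitudes at 0.16 or less and 0.29 or less. Some DD errors were wide, so these are not upper limits. Without the 4 arrays of lowest 5′ minus 3′ signal (LD hour 2 and DD hours 14, 18 and 22) the DD amplitudes were 0.16 ± 0.31 and 0.17 ± 0.38 (SE). With that signal in the fit, the DD amplitude of CG12998 was 0.29 ± 0.18. CG12998 is dimmer than the median probe set and has no value among the brighter ones. The DD minus LD difference kept its sign throughout. With each array left out it ran from −1.37 to −1.08 for CG11413 and from −1.32 to −0.97 for CG12998 (adjusted p from 0.0390 to 0.346 and from 0.0470 to 0.432). With a separate curve for each day it was again −1.23 and −1.15, with 37 probe sets called, 34 of them lower in DD. With the hour as a replicate block 2 were called, both lower (2). With the 5′ minus 3′ signal in the fit CG12998 had −1.34, and 4 probe sets were called for an LD rhythm. Without the 4 arrays of lowest signal 0 were called for mean level in either direction (limma, 989 with an unadjusted p under 0.05) and 3 for an LD rhythm, with only 8 arrays fitted. DD minus LD was then −1.74 ± 0.29 log2 for CG11413 and −1.65 ± 0.26 for CG12998, with no DD array after hour 10. In place of 21 called for mean level, 18 of them lower, there were between 4 (without DD hour 6) and 26 (without LD hour 22), of which 3 and 24 were lower. There were 5 without DD hour 18 and 13 without LD hour 18. In place of 7 called for an LD rhythm there were between 0 (without LD hour 22, limma, 716 with an unadjusted p under 0.05) and 37 (without LD hour 6), 16 without LD hour 2, 2 without LD hours 10 or 14, 1 without LD hour 18 and 1 with the LD arrays alone. CG11413 kept its own LD call in 15 of 19 settings and CG12998 in 13 of 18. The genes were chosen on these values, so both counts are descriptions. The cause of the changes between settings was not tested. Apart from the settings named in the report, none of those run changed a call of CG11413 or CG12998 for mean level.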

Other observations

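Of the 10 genes most like CG11413 and CG12998, CG4962, CG13043 and Nplp3 lie close together on chromosome arm 3L, with 3 protein-coding genes between CG4962 and CG13043 and 3 between CG13043 and Nplp3. This was noticed after their values were seen and was not tested. CG13043 went from 6.01 to 8.31 log2 in LD and from 5.71 to 6.68 in DD, and Nplp3, among the brightest of the group, from 12.0 to 13.1 in LD and from 11.4 to 12.0 in DD. The DD curve of Nplp3 was turned, with an amplitude of 0.23 ± 0.08 log2 (SE, 12 arrays) and the peak at hour 22.3, against 0.48 ± 0.08 and hour 10.3 in LD. The adjusted p of its curve difference was 0.228 (limma).

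The 3 genes least like the pair were Obp56g (r = −0.864), CG9630 (−0.847) and schlank (−0.823). CG9630 lay between 3.04 and 3.38 on all arrays, within the range of the mouse and yeast controls. Obp56g, an odorant-binding protein gene, was higher in DD than in LD at all 6 hours, with levels of 7.87 to 9.20 in LD and 8.80 to 9.81 in DD (0.79 ± 0.18 log2, limma, adjusted p = 0.290). The schlank gene, which encodes a ceramide synthase, reached 6.29 in LD and lay between 6.21 and 6.33 in DD.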
